A study of Mus musculus with 220 samples.

Results

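The proteasome genes were followed across the livers of 220 female F1 mice from 96 maternal strains. Members were all genes whose only symbol in the platform annotation began with Psma, Psmb, Psmc, Psmd or Psme, which gave 42 of 17097 genes, carried by 64 probe sets. A gene with several probe sets was represented by its brightest one, judged by the mean of the 220 arrays. Of the 42, the immune subunits Psmb8, Psmb9, Psmb10, Psme1 and Psme2 were set against the other 37. Psmc6, Psmd10 and Psme4 were not analysed here.

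All mice were sampled at 24 weeks of age, after 8 weeks of chow and 16 weeks of a Western diet, and each liver was hybridised to 1 array. Recombinant inbred mothers came from 34 BXD strains with 83 offspring and 21 AXB/BXA strains with 47. A further 8 CXB strains had 17 offspring and 4 BXH strains had 8. The last group held 65 offspring of 29 classical inbred strains, C57BL/6J among them. Among the BXD strains was BXD24/TyJ-Cep290<rd16>/J (3 mice), whose name gives the rd16 allele of Cep290. Every father was of C57BL/6J background and passed on human APOE-Leiden and human CETP, so that all groups, the C57BL/6J mothers' offspring included, held both transgenes and a paternal C57BL/6J genome. Where the transgenes had inserted, and in how many copies, was not known to the study. A strain had 1 mouse in 9 cases, 2 mice in 51, 3 mice in 35 and 4 mice in 1, and nothing in the labels says whether mice of a strain shared a litter, cage or day. Hepatocyte markers lay between 12.27 and 12.60 on average per strain, as log2 RMA signal, where the median probe set mean was 3.46. The median correlation of an array with the others was at least 0.981, and no 2 arrays were identical (highest r = 0.997). In whole liver, fewer cells of a type and less RNA per cell cannot be told apart.

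The proteasome degrades proteins marked with ubiquitin. Its 20S core is a barrel of alpha rings, which gate the entry, around beta rings, in which beta1 (Psmb6), beta2 (Psmb7) and beta5 (Psmb5) carry the proteolytic sites. The 19S cap recognises ubiquitin, unfolds the substrate with a ring of ATPases (Psmc) and holds the scaffold and receptor subunits (Psmd). Interferon gamma induces Psmb9, Psmb10 and Psmb8, which replace beta1, beta2 and beta5 in newly made cores and form the immunoproteasome, and it induces Psme1 and Psme2, the alpha and beta subunits of the PA28 activator. The immunoproteasome is known for making peptides that are presented on MHC class I.

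The immune subunits were expressed at high signal in every liver, and their SD between mice of a strain was about that of strain means or larger. A mean of few mice carries part of the spread between mice, so the SD of strain means overstates the spread between strains. Psmb8, the beta5i subunit (LMP7), had a lowest, median and highest value of 8.12, 9.16 and 10.10 over the 220 mice. Psmb9, the beta1i subunit (LMP2), ran from 8.04 through 8.66 to 10.06. Psmb10, the beta2i subunit (MECL-1), ran from 8.78 through 9.27 to 10.26. These 3 catalytic subunits spanned more than a log2 unit. Psme1 had 10.18, 10.47 and 11.08 as lowest, median and highest values, and Psme2 had 9.74, 10.18 and 10.79, so the PA28 subunits were spread less. The SD between mice of a strain was 0.24 for Psmb8, 0.29 for Psmb9, 0.20 for Psmb10, 0.12 for Psme1 and 0.12 for Psme2, against an SD of the 96 strain means of 0.20, 0.23, 0.18, 0.12 and 0.12 for the same genes in that order.

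limma's moderated F-test over the 87 strains with at least 2 mice (211 mice) called 40 of the 42 members at a Benjamini-Hochberg adjusted p under 0.05, or 95.2%. The same test called 47.9% of all probe sets, 59.2% of all genes and 87.1% of the 10474 genes above the median signal, which 41 of the 42 members also were. All 5 immune subunits were called, with adjusted p = 0.0055 for Psmb8, 0.026 for Psmb9, 0.0021 for Psmb10, 2.9e-05 for Psme1 and 1.6e-05 for Psme2. Their share of variance between strains, the between-strain component over the total, was 0.22 for Psmb8, 0.17 for Psmb9, 0.25 for Psmb10, 0.36 for Psme1 and 0.37 for Psme2. The median share was 0.25 over the 5 immune subunits and 0.42 over the other 37 members, beside 0.42 over all genes above the median signal. The immune subunits thus had low shares together with wide spreads between mice of a strain (median SD 0.20, against 0.093 for the other members). When the mice numbered 1, 2 or 3 in their strains were left out in turn, between 2 and 3 of the 5 immune subunits were called. Leaving out number 1 or 2 also took the strains of 2 mice out of the test. Leaving out number 3 removed no strain. Psmb8, Psmb9 and Psmb10 were not called there (adjusted p = 0.16, 0.11 and 0.092, limma F-test).

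**Figure D1:**
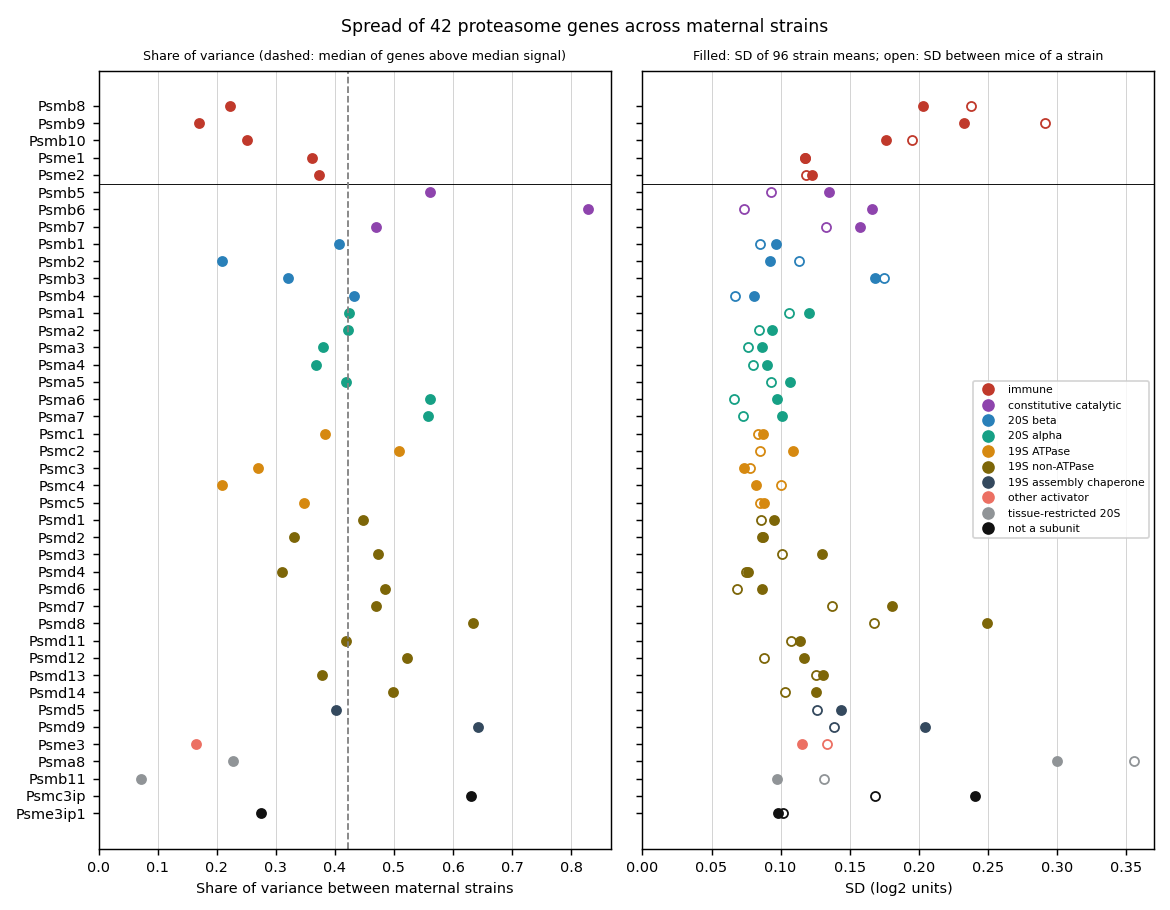
Left, share of variance between maternal strains for each of the 42 members, with a dashed line at the median of the 10474 genes above the median signal (0.42); right, SD of the 96 strain means (filled) and SD between mice of a strain (open), in log2 units. The 5 immune subunits (red, top) lie between shares of 0.17 and 0.37, left of the line, and Psmb6 lies farthest right at 0.83.

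The panels gave different calls for the immune subunits. Across the 18 AXB/BXA strains with replicates all 5 were called, with shares of 0.47 (Psmb8), 0.38 (Psmb9), 0.52 (Psmb10), 0.49 (Psme1) and 0.53 (Psme2), in a panel where 11 of 42 members and 29% of all genes were called. Across 31 BXD strains 3 of the 5 were called (Psmb8, Psmb10 and Psme1), among 25 of 42 members and 42.2% of genes. Across 27 classical strains limma called 0 of the 5, and 0 had an unadjusted p under 0.05, although 26 of 42 members and 45.4% of genes were called; the shares of Psmb8, Psmb9 and Psmb10 were estimated at 0. The shares of genes called in a panel cover dim genes too, while 41 of the 42 members lay above the median signal. The difference between panels was not tested. With the mice numbered 1, 2 or 3 left out in turn, the members called fell to 2 to 5 in AXB/BXA, 5 to 12 in BXD and 1 to 15 in classical strains. CXB (7 strains) and BXH (4 strains) gave 0 called members with limma, against 5 and 1 at an unadjusted p under 0.05 and against 1.95% and 1.75% of genes called.

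Few single strains stood apart in an immune subunit. Each strain mean was set against the mean of the other 95 strains in 1 limma fit, with adjustment over all probe sets and strains. Of 480 pairs of an immune subunit and a strain, 9 were called higher (1.88%) and 1 lower (0.208%), while over all genes 2.35% of pairs were called higher and 2.34% lower. In BXA4/PgnJ, where 3.27% of all genes were called higher, the catalytic subunit Psmb8 had 9.64, 9.44 and 10.10 in its 3 mice, and its mean of 9.73 lay 0.56 ± 0.14 (SE) above the other strains (adjusted p = 0.0056, limma). Psmb9 had 9.24, 9.05 and 9.84 in the same mice and was 0.69 ± 0.17 higher (adjusted p = 0.0049). Psme1 was 0.30 ± 0.07 higher (10.72, 10.57 and 11; adjusted p = 0.0033) and Psme2 0.33 ± 0.07 higher (10.47, 10.42 and 10.67; adjusted p = 0.00082). The third mouse was the highest for all 4 genes. Without it the differences were 0.37 (Psmb8), 0.46 (Psmb9), 0.18 (Psme1) and 0.26 (Psme2), with adjusted p = 0.25, 0.25, 0.30 and 0.074 in limma.

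The calls in CXB7/ByJ, AXB19/PgnJ and AXB8/PgnJ were also lost, with smaller differences, without 1 mouse, while in SM/J both mice were alike. In CXB7/ByJ, Psmb10 had 9.57, 9.47 and 10.08 and was 0.41 ± 0.11 higher than in the other strains (adjusted p = 0.017, limma), and Psme1 had 10.57, 10.65 and 11.08 and was 0.30 ± 0.07 higher (adjusted p = 0.0027). Without the third mouse the differences were 0.22 and 0.15 (adjusted p = 0.49 and 0.44). In AXB19/PgnJ, Psmb10 had 10.09 and 9.49 (0.50 ± 0.14 higher, adjusted p = 0.020) and Psme1 had 10.91 and 10.58 (0.27 ± 0.08 higher, adjusted p = 0.046). With only the second mouse, assumed to vary like the other strains, they were 0.20 and 0.11 higher (adjusted p = 0.74 and 0.77). In SM/J the called gene was Psme2, with 10.50 and 10.44 (0.28 ± 0.09 higher, adjusted p = 0.039). Its difference was about as large with the first mouse alone (0.31, adjusted p = 0.15) or the second alone (0.25, adjusted p = 0.32). The only fall was Psmb8 in AXB8/PgnJ, with 9.03 and 8.12, 0.60 ± 0.17 below the other strains (adjusted p = 0.019) and 0.15 below them without the second mouse (adjusted p = 0.86). Mice of 1 strain could lie at opposite ends: the 2 mice of 129X1/SvJ had 8.68 and 9.98 for Psmb8, 8.26 and 10.06 for Psmb9, 8.78 and 10.26 for Psmb10, 10.34 and 10.94 for Psme1 and 10.12 and 10.79 for Psme2.

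The 3 highest and 3 lowest strain means were as follows. For Psmb8 the highest were BXA1/PgnJ (9.73, 1 mouse), BXA4/PgnJ (9.73) and BXH6/TyJ (9.50), and the lowest AXB8/PgnJ (8.58), CXB13/HiAJ (8.77) and AXB15/PgnJ (8.82). For Psmb9 the highest were BXA4/PgnJ (9.38), 129X1/SvJ (9.16) and BXA1/PgnJ (9.16), and the lowest CXB13/HiAJ (8.15), AXB15/PgnJ (8.20) and AXB8/PgnJ (8.24). For Psmb10 the highest were AXB19/PgnJ (9.79), BXA1/PgnJ (9.77) and CXB7/ByJ (9.71), and the lowest BXD61/RwwJ (8.92), BXD69/RwwJ (8.96) and AXB8/PgnJ (8.97). The AXB/BXA panel thus supplied strains at both ends of all 3 catalytic subunits. For Psme1 the highest were CXB7/ByJ (10.77), BXA4/PgnJ (10.76) and AXB19/PgnJ (10.74), and the lowest PL/J (10.22, 1 mouse), BXA24/PgnJ (10.24) and BXD64/RwwJ (10.25). For Psme2 the highest were BXA4/PgnJ (10.52), BXA1/PgnJ (10.47) and SM/J (10.47), and the lowest AXB8/PgnJ (9.94), CXB3/ByJ (9.96) and BXD64/RwwJ (9.96). Neighbouring strains in these orders differed by less than the SD between mice of a strain.

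**Figure D2:**
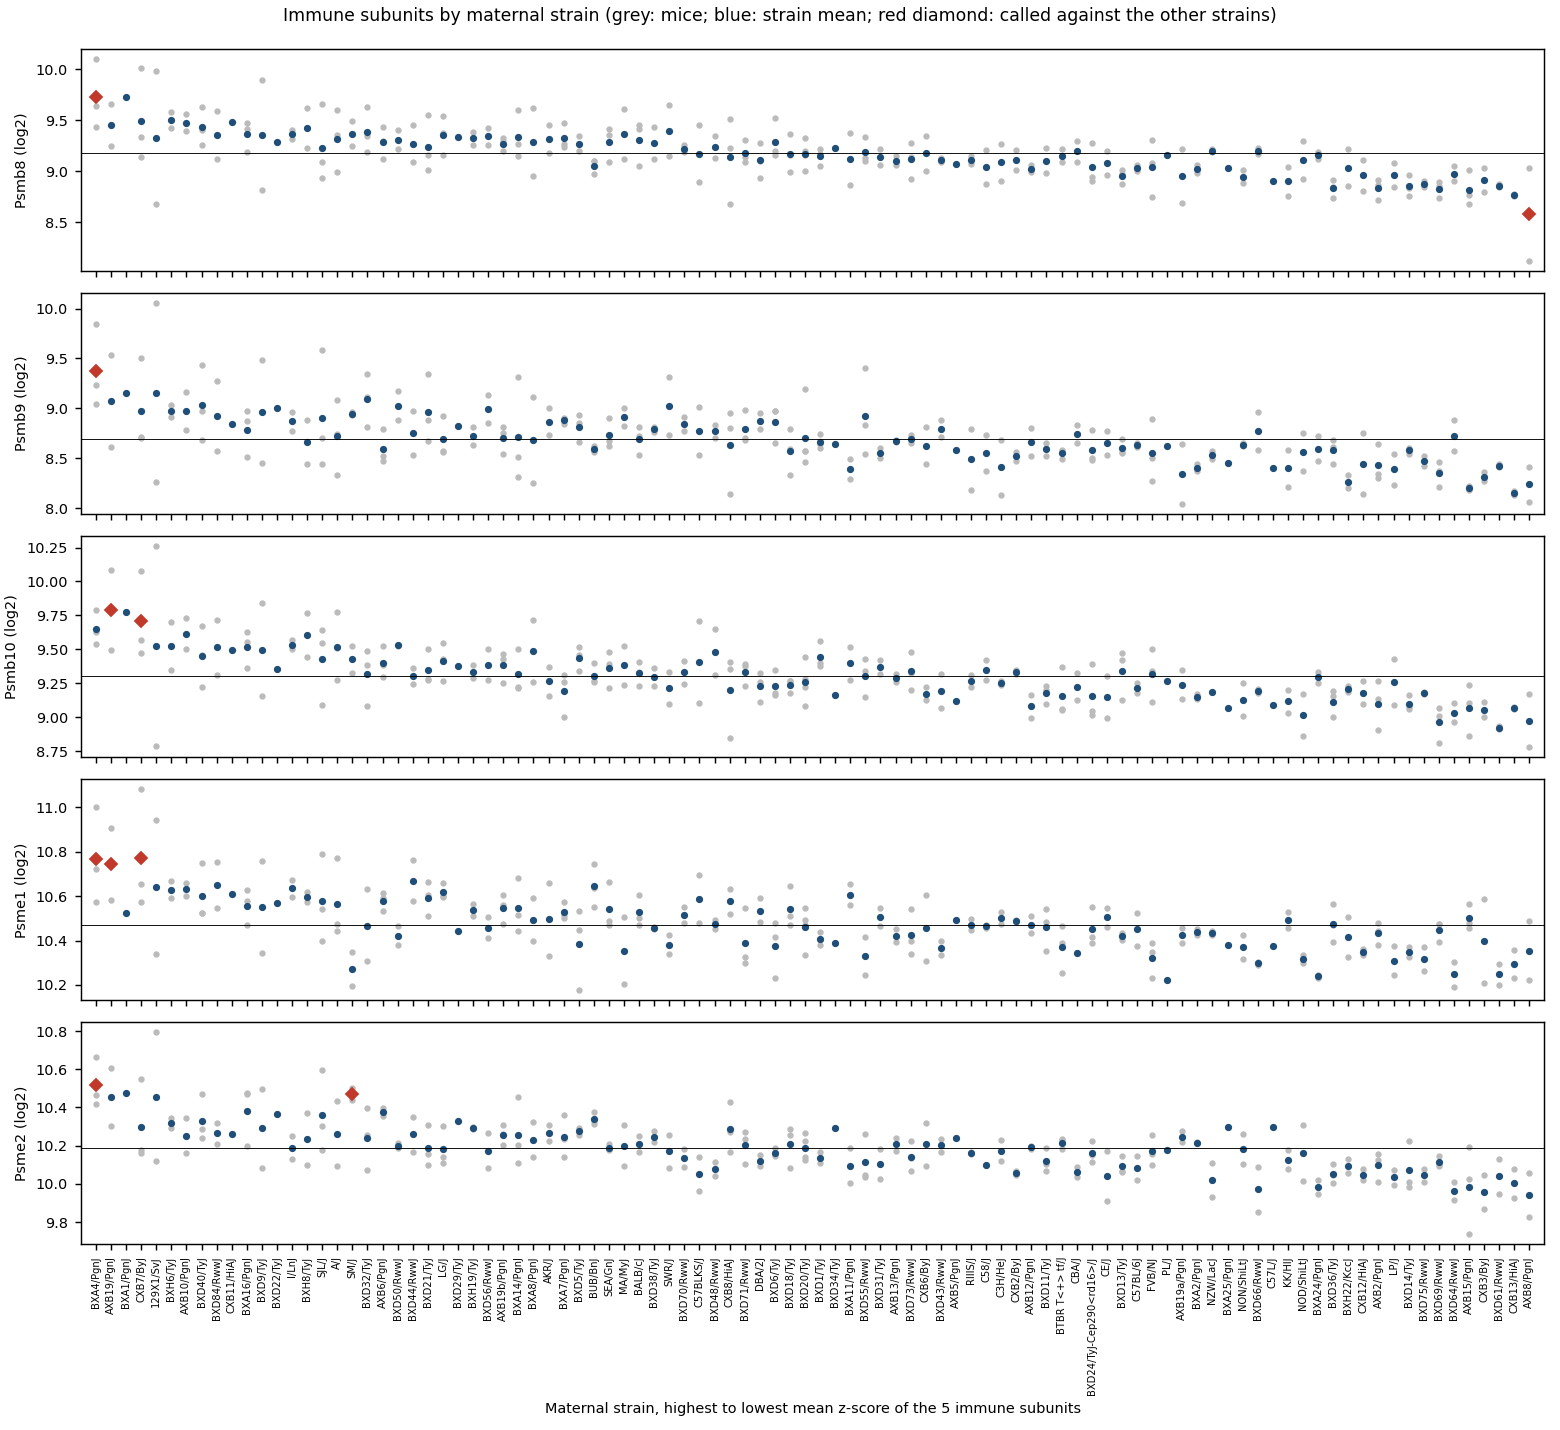
Log2 signal of the 5 immune subunits in each of the 96 maternal strains, ordered from the highest to the lowest mean z-score of the 5 genes; grey points are mice, blue points strain means, the line the mean of strain means, and red diamonds strains called against the other 95. The 10 diamonds fall in 5 strains, and in BXA4/PgnJ, AXB19/PgnJ, CXB7/ByJ and AXB8/PgnJ single grey points lie far from their strain's other mice.

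The strain means of the immune subunits moved together. Over the 96 strain means, all 10 pairs among the 5 were positively correlated, from r = 0.43 for Psmb9 with Psme1 to r = 0.84 for Psmb8 with Psmb9 (Spearman rho 0.40 to 0.83), each with an adjusted permutation p of 1.4e-05 at most over 23 pairs, where 1e-05 is the smallest p that 100000 permutations can give. Psmb8 with Psmb10 had r = 0.82, Psmb8 with Psme2 0.69 and Psme1 with Psme2 0.54. Without the 2 strains farthest from the median of the first gene, r ran from 0.36 to 0.83. Within panels r ran from 0.66 to 0.93 over 21 AXB/BXA strains, where all 10 pairs were called, from 0.36 to 0.85 over 34 BXD strains, where all 10 were called, and from 0.17 to 0.77 over 29 classical strains, where 5 were called. The deviations of single mice from their strain mean were correlated too, with r from 0.66 to 0.86 over 211 mice. Their median r was 0.77, against 0.62 over strain means. A mean of few mice carries such deviations, so r over strain means does not show the strain part alone. In classical strains the shares of Psmb8, Psmb9 and Psmb10 were estimated at 0, yet r among their strain means was 0.57 to 0.77. Strains of a recombinant inbred panel share progenitors and are not fully independent.

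The constitutive subunits that the immune ones replace did not follow them. Psmb8 with Psmb5 had r = -0.06 (adjusted permutation p = 0.57), Psmb9 with Psmb6 r = -0.16 (0.12) and Psmb10 with Psmb7 r = -0.19 (0.070). Spearman's rho for Psmb10 with Psmb7 was -0.24 (adjusted permutation p = 0.024), and this pair was also called with the biweight midcorrelation. Without the 2 strains farthest from the median, r was -0.09, -0.20 and -0.22. As a description, the median r over the 185 pairs of an immune subunit with another member was -0.01, and 89 of the 185 were above 0, in a range from -0.42 to 0.55. The mean z-score of the 5 immune subunits and that of the 36 other members above the median signal had r = 0.00 over the 96 strains, -0.03 over the classical, -0.01 over the BXD and -0.05 over the AXB/BXA strains.

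Irf1 and Nlrc5, transcriptional activators of interferon gamma and MHC class I genes, rose and fell with the immune subunits. Irf1 had strain means from 7.40 through 8.06 to 8.58 (lowest, median, highest). It correlated with Psmb8 at r = 0.74, with Psmb9 at 0.71, with Psmb10 at 0.63, with Psme2 at 0.58 and with Psme1 at 0.43 (adjusted permutation p between 1.4e-05 and 2.6e-05). Nlrc5 ran from 7.30 through 7.93 to 8.45. It correlated with Psmb10 at r = 0.62, with Psmb9 at 0.44, with Psme1 at 0.43 and with Psmb8 at 0.39, all called, while Psme2 with Nlrc5 had r = 0.13 (adjusted permutation p = 0.20). Within the 29 classical strains 2 of these 10 pairs were called, against 9 of 10 in the BXD and 9 of 10 in the AXB/BXA strains. Among deviations of mice from their strain mean, r over the 10 pairs ran from 0.54, for Psme2 with Nlrc5, to 0.76. These correlations were thus not a trait of strain means alone.

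By Pearson r over 96 strain means, the genes most like the mean z-score of the immune subunits, of 17055 outside the family, were Tgtp1, an immunity-related GTPase (r = 0.83), Calhm6 (0.81), Zbp1, a nucleic acid sensor (0.78), Ifi47, another such GTPase (0.77), and Gbp8, a guanylate-binding protein (0.74). Irf1 (0.73), Cd274, which encodes PD-L1 (0.72), Irgm1 (0.68), AW112010 (0.67), Parp12 (0.67), Casp1 (0.65), Gbp2 (0.65), Rtp4 (0.64), Parp14 (0.63) and Lcp2 (0.63) followed. In all genes 95% had an absolute r under 0.35. Tgtp1 had r = 0.62 over the classical, 0.82 over the BXD and 0.94 over the AXB/BXA strains. Of the interferon gamma response list, 17 of 17 measured genes had r above 0 with the immune score (median 0.50), and of the type I interferon list 17 of 17 (median 0.42). Of the MHC class I and antigen processing list 10 of 10 did (median 0.38), with H2-T23 at 0.40, H2-D1 at 0.36 and H2-K1 at 0.12; the median over all genes was 0.00.

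In the F-test across strains, 16 of 17 measured interferon gamma genes, 17 of 17 type I interferon genes and 10 of 10 antigen processing genes were called, beside 87.1% of genes above the median signal. The interferon gamma genes with the highest shares were Ubd (0.70), the ubiquitin-like FAT10, Irf8 (0.55), Ciita (0.41) and Nlrc5 (0.41). In the type I list they were Eif2ak2 (0.65), Usp18 (0.61), Xaf1 (0.60) and Oasl1 (0.57), and in the antigen processing list H2-K1 (0.81), H2-T23 (0.80), H2-D1 (0.71) and Tapbp (0.49).

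Some T and NK cell and macrophage markers moved with the immune subunits as well. Over all genes, 95% had an absolute r under 0.35 with the immune score. Of the T and NK cell markers, 11 of 11 measured had r above 0 with the immune score (median 0.35; Nkg7 0.52, Ccl5 0.48, Cd3d 0.47), with Cd8a, Cd8b1, Cd4 and Gzma at or under the median signal. The list's mean log2 level was 4.28 in BXA4/PgnJ, 3.98 in AXB19/PgnJ, 4.26 in CXB7/ByJ, 4.67 in SM/J and 3.88 in AXB8/PgnJ, against a median strain of 4.07 and a range from 3.67 to 4.82. Of the macrophage and Kupffer cell markers 10 of 11 had r above 0 (median 0.38), and strain levels ran from 8.21 to 9.54 (median 8.90). C1qb was at 0.45, Timd4 at 0.07, Vsig4 at 0.01 and the Kupffer cell marker Clec4f at -0.07. Neutrophil markers had r above 0 in 4 of 4 (median 0.28; 4.31 to 6.50, Cxcr2 under the median signal), B and plasma cell markers in 3 of 4 (0.12; 3.33 to 5.04, Ms4a1 under it) and dendritic cell markers in 3 of 4 (0.20; 3.48 to 4.42, Flt3 and Xcr1 under it). All measured markers of neutrophils, B and plasma cells and dendritic cells had an absolute r under 0.35. Endothelial markers had a median r of 0.00, cholangiocyte markers 0.04 and hepatocyte markers -0.08. The macrophage list's level was 8.93 in BXA4/PgnJ, 8.86 in AXB19/PgnJ, 9.01 in CXB7/ByJ, 9.42 in SM/J and 8.78 in AXB8/PgnJ. The neutrophil list's level was 6.02, 5.23, 5.68, 6.01 and 4.92 in the same strains in that order, with a median strain of 5.57. SM/J was also near the top in endothelial markers, with 7.27 against a range from 5.73 to 7.30. The part of these cells in the levels of the immune subunits was not tested.

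Promoters of 35 of the 42 members were matched by symbol in the RefSeq table of build GRCm38.p6, 39 in all, each from 250 bases before to 50 bases after an annotated start. Those of the 5 immune subunits are shown because these genes moved together, and capitals mark the motifs found. Psme2 has a pair of annotated starts, of which 1 is shown. Psmb8 is at chr17:34198195-34201454, Psmb9 at chr17:34182030-34187330, Psmb10 at chr8:105935728-105938392, Psme1 at chr14:55578494-55581527 and Psme2 at chr14:55587440-55591101. The stretches shown are chr17:34197945-34198244 (plus strand), chr17:34187281-34187580 (minus strand), chr8:105938343-105938642 (minus strand), chr14:55578244-55578543 (plus strand) and chr14:55591052-55591351 (minus strand).
Psmb8: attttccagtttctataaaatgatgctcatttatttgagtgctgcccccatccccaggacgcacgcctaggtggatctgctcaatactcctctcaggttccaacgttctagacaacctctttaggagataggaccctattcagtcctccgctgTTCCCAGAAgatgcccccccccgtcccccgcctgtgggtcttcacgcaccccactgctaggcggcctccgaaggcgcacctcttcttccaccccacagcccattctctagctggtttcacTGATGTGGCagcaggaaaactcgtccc
Psmb9: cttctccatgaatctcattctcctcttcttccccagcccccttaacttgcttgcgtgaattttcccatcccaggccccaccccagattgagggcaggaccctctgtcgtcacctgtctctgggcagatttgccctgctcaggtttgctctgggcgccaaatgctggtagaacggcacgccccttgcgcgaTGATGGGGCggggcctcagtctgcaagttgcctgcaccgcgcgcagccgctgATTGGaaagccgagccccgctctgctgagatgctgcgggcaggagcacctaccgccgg
Psmb10: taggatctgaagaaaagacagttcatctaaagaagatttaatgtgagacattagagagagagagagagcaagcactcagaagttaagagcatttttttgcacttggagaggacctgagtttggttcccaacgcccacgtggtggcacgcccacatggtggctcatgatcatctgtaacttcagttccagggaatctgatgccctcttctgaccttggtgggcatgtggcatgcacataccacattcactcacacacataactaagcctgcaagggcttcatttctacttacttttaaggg
Psme1: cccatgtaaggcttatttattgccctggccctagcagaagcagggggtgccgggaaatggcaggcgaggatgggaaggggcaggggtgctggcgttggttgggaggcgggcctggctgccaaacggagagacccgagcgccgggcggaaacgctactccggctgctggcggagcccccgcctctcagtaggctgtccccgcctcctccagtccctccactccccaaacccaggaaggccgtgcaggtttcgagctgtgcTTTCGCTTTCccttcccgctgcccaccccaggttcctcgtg
Psme2: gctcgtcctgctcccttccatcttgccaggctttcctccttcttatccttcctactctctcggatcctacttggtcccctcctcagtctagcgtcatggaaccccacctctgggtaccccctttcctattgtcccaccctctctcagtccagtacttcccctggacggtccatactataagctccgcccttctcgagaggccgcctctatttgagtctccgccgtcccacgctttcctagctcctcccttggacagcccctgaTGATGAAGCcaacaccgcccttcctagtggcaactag
In Psmb8 the capitals mark TTCCCAGAA, a match to the gamma-activated site TTCNNNGAA at -97 from the start, and TGATGTGGC. The latter matches TGANNNNGC, a loose pattern used here for the antioxidant response element core, with any base at each N. In Psmb9 they mark TGATGGGGC, which matches TGANNNNGC, and ATTGG, the NF-Y box CCAAT on the opposite strand. In Psme1 they mark TTTCGCTTTC, which matches the core of the interferon-stimulated response element (GAAA, any 2 bases, GAAA) on the opposite strand, 9 bases after the start. In Psme2 they mark TGATGAAGC, which matches TGANNNNGC, and in Psmb10 none of the motifs was found. Both strands were searched. This core was in 4 of 39 member promoters (Psmb3, Psmd4, Psmd9 and Psme1) and in 3.44% of all 32851 promoters, TTCNNNGAA in 2 (Psmb8 and Psmd2) and in 8.3%, TGANNNNGC in 23 and in 41.3%, and CCAAT in 15 and in 37.4%. Such a match is a description of these letters in the window.

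Among the other members, beta1, the constitutive catalytic subunit Psmb6 (chr11:70525324-70527858), had the highest share of variance, 0.83 (F-test adjusted p = 1.5e-30), with an SD of 0.074 between mice of a strain. Psmb6 was read by 1 probe set, in which transcript level and a strain's binding to the probes cannot be told apart. Its values over 220 mice were 9.85, 10.44 and 10.70 (lowest, median, highest). The strain against the others was called lower in 17 strains, of which 14 were BXD strains and 3 the classical strains DBA/2J, C57BLKS/J and SEA/GnJ, and higher in 5 (A/J, CBA/J, AXB6/PgnJ, AXB19b/PgnJ and BXH8/TyJ). DBA/2J, the progenitor of the BXD strains, had 10.08, 10.08 and 10.21, against 10.42 and 10.46 in C57BL/6J. The groups did not overlap, and the difference was -0.32 ± 0.07 (SE; adjusted p = 0.0026, limma). Without the second C57BL/6J mouse it was -0.30 (adjusted p = 0.085), and with the 5 progenitor strains fitted alone the adjusted p was 0.13. The 34 BXD strain means fell into 16 at or under 10.18 and 18 at or over 10.36, with the widest gap between them (0.18). Within the BXD strains the share was 0.89 (adjusted p = 7.2e-15), and within the AXB/BXA strains, whose means ran from 10.35 to 10.57, it was 0.18 (adjusted p = 0.79). The lowest strain, BXD64/RwwJ, had 9.98 and 9.85. The 2 mice of BXH19/TyJ had 10.48 and 9.94, so that 1 lay between the values of C57BL/6J and those of C3H/HeJ (10.57 and 10.54) and the other among the lowest of all mice.

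**Figure D3:**
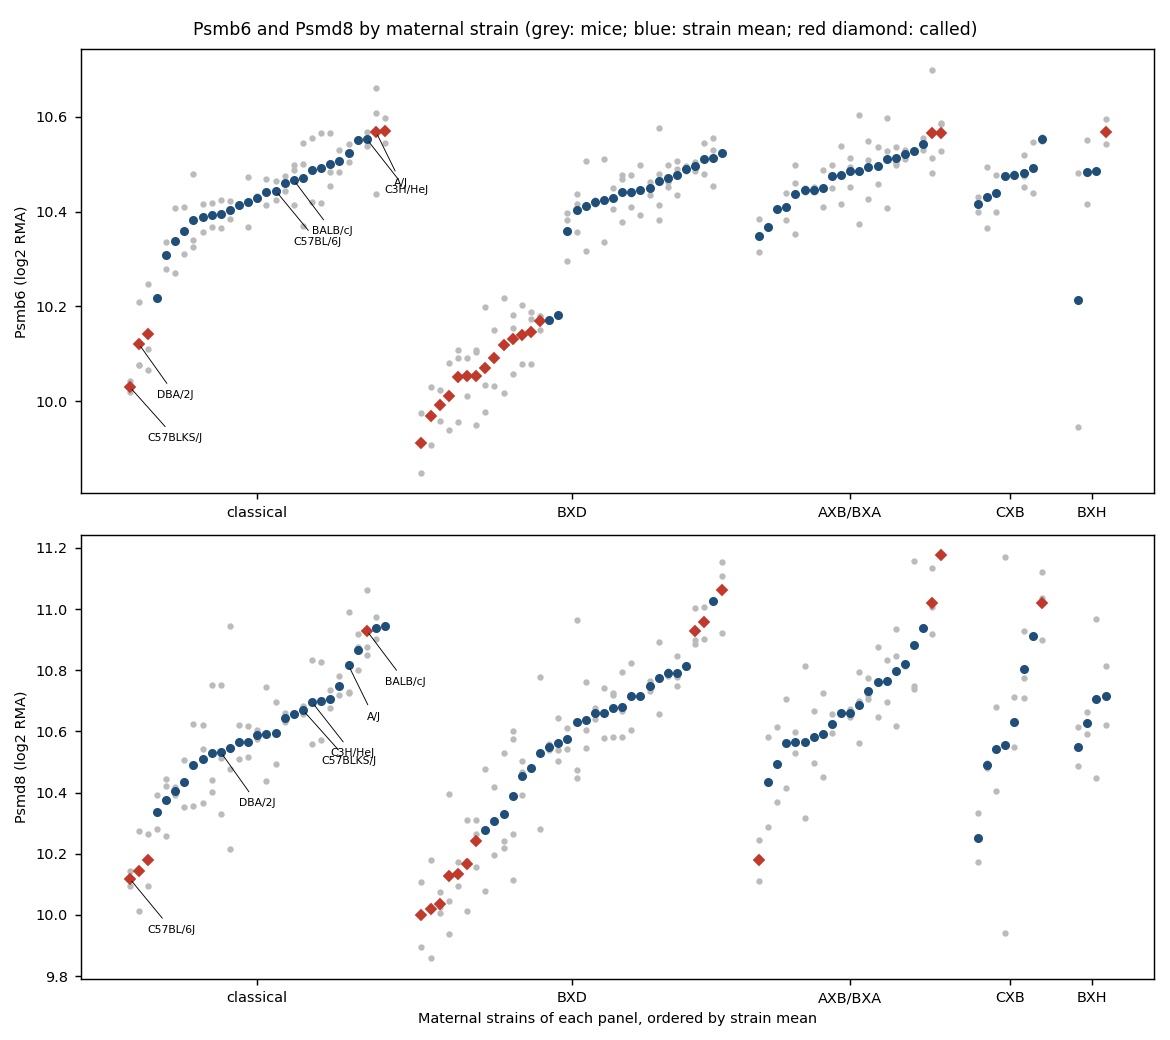
Log2 signal of Psmb6 (top) and Psmd8 (bottom) in the maternal strains of each panel, ordered by strain mean; grey points are mice, blue points strain means and red diamonds strains called against the other 95. In Psmb6 the BXD means divide at a gap between 10.18 and 10.36, while in Psmd8 they run from 10 to 11.06, with C57BL/6J the lowest classical strain.

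Psmd8, the Rpn12 subunit of the 19S lid (chr7:29174187-29180673), had a share of 0.63 (adjusted p = 3.3e-16) and the widest range of strain means among the subunits and chaperones outside the immune and tissue-restricted ones, from 10 in BXD56/RwwJ (9.90 and 10.11) to 11.18 in the 1 mouse of AXB5/PgnJ. C57BL/6J had 10.10 and 10.14 and was the lowest classical strain, 0.49 below the mean of the others (adjusted p = 0.0056). A/J had 10.72, 10.99 and 10.73 (0.70 ± 0.15 above C57BL/6J, adjusted p = 0.00073). BALB/cJ had 10.85, 11.06 and 10.88 (0.81 ± 0.15 above, adjusted p = 7.2e-05), and C3H/HeJ had 10.83 and 10.56 (0.58 ± 0.17 above, adjusted p = 0.020). No mouse of these 3 strains overlapped with C57BL/6J. Leaving out 1 mouse kept the calls for A/J and BALB/cJ; for C3H/HeJ adjusted p was 0.33 without its first mouse and 0.20 and 0.073 without either C57BL/6J mouse. DBA/2J had 10.51, 10.75 and 10.33, above both C57BL/6J mice but not called. Within panels the share was 0.78 in BXD and 0.59 in AXB/BXA strains.

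Psmd9 (chr5:123228190-123250126), a chaperone of 19S base assembly known as p27, had a share of 0.64 (adjusted p = 2.0e-16), with strain means from 6.86 in BXH22/KccJ (6.78 and 6.94) to 7.98 in SWR/J (7.90 and 8.06). It was called higher in 10 strains and lower in 6. C3H/HeJ had 6.97 and 6.85, against 7.46 and 7.30 in C57BL/6J, a difference of -0.47 ± 0.14 (adjusted p = 0.024, limma); without a mouse of either strain the adjusted p was 0.084 to 0.35 in 3 of 4 cases. Psmb5, the beta5 subunit, had a share of 0.56 and ran from 9.70 in LG/J (9.85, 9.60 and 9.65) to 10.40 in the 1 mouse of BXD22/TyJ. Psmb7, the beta2 subunit, had a share of 0.47 and ran from 7.77 in C57BLKS/J (7.64 and 7.91) to 8.53 in the 1 mouse of AXB5/PgnJ. The highest strain means of both were thus single mice.

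In the alpha rings all 7 genes were called, with shares from 0.37 to 0.56 and SDs of strain means from 0.086 to 0.12. Psma6 (alpha1) had a share of 0.56, with strain means between 10.33 in AXB19/PgnJ and 10.81 in BXD29/TyJ (1 mouse). Psma7 (alpha4) had 0.56, with 9.85 in LG/J and 10.36 in BXA25/PgnJ (1 mouse) as its ends. Psma1, Psma2, Psma3, Psma4 and Psma5 had 0.42, 0.42, 0.38, 0.37 and 0.42. Of the structural beta subunits Psmb4 had 0.43, Psmb1 0.41, Psmb3 0.32 and Psmb2 0.21, all called. In the ATPase ring Psmc2 had 0.51, Psmc1 0.38, Psmc5 0.35, Psmc3 0.27 and Psmc4 0.21, all called. In the lid and base Psmd12 had 0.52, Psmd14, the deubiquitinase of the lid, 0.50, Psmd6 0.49, Psmd3 0.47, Psmd7 0.47, Psmd1 0.45 and Psmd11 0.42. Psmd13 had 0.38, Psmd2 0.33 and Psmd4, a ubiquitin receptor, 0.31, all called, and the assembly chaperone Psmd5 had 0.40. The median range of strain means was 0.53 over the 37 other members and 0.87 over the 5 immune subunits. A mean of few mice carries part of the spread between mice, so such ranges widen with that spread. Its median SD was 0.093 for the other members and 0.20 for the immune subunits, beside 0.17 over genes above the median signal. These ranges thus do not show which class differed more between strains. Relative to total variance, strains accounted for more in the other members (median 0.42) than in the immune subunits (0.25).

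Psme3, the PA28 gamma activator of the nucleus, was not called (share 0.16, adjusted p = 0.053; strain means 6.43 to 7.10). Psmb11, the beta5t subunit of the thymus, lay under the median signal (mean 2.71, adjusted p = 0.32). Psma8, an alpha subunit of the testis, had a mean of 4.21, a share of 0.23 and an SD between mice of a strain of 0.36. Its highest strain was BTBR T<+> tf/J, with 5.74, 5.16 and 4.50. Psme3ip1, which encodes a partner of PA28 gamma and is no subunit, had a share of 0.27. Psmc3ip (chr11:101092141-101095435), known as HOP2 in meiotic recombination and named only for its binding to Psmc3, had a share of 0.63 and the widest range of strain means of the 42, 1.75. NOD/ShiLtJ had 5.14 and 4.94, 1.42 above the other strains (adjusted p = 1.6e-18), and FVB/NJ had 4.86, 4.91 and 5.04, 1.31 above them (adjusted p = 3.5e-22), while the 215 mice of the other strains had 3.13, 3.58 and 4.08 (lowest, median, highest).

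Psmb3, a structural beta subunit, owed its range to 3 mice. Its probe set was at a median of 9.53 and above 10 in 3 of 220 mice, 1 each of AXB8/PgnJ (10.93; the other mouse 9.72), BXD64/RwwJ (10.73; 9.78) and RIIIS/J (10.73; 9.41). The 3 strains were called higher than the others, by 0.78, 0.70 and 0.52 (adjusted p = 2.4e-06, 2.7e-05 and 0.0044, limma). Without these mice the differences were 0.18, 0.23 and -0.14 and were not called. On the other bright probe set of Psmb3 the same mice had 9.53, 9.42 and 9.63, and the strain means of the 2 probe sets had r = -0.11.

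In LG/J and C57BLKS/J many core and cap genes were low at once. LG/J (3 mice) was called lower than the other strains in 19 of 42 members, where 4.58% of all genes were called lower in that strain, and higher in 0. Psmb7 was 0.41 lower (8.08, 7.61 and 7.66), Psmd7 0.39, Psmd12 0.37, Psma1 0.34 and Psmb5 0.29 lower. Psma7, Psmd5, Psmc1, Psma2, Psmd11, Psmd14, Psma5, Psmc4, Psma3, Psmd1, Psma6, Psmc2, Psmd6 and Psmb4 made up the rest, with falls of 0.15 to 0.28. C57BLKS/J (2 mice) was called lower in 15 of 42, against 3.11% of genes. Psmd7 was 0.43, Psmb7 0.41, Psme3 0.36, Psmb6 0.36 and Psmd12 0.33 lower, followed by Psmd5, Psma1, Psmc2, Psma5, Psmd11, Psmd1, Psma4, Psmd6, Psma7 and Psma6. No immune subunit was called in either strain: their differences ran from -0.01 to 0.18 in LG/J and from -0.14 to 0.12 in C57BLKS/J. The shares of genes called lower cover dim genes too, while 41 of the 42 members lay above the median signal. The median difference over the members was -0.16 in LG/J and -0.14 in C57BLKS/J. Over all genes it was -0.0046 in LG/J and -0.0042 in C57BLKS/J. Without 1 mouse, the count was 18, 11 or 9 in LG/J and 3 or 9 in C57BLKS/J.

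**Figure D4:**
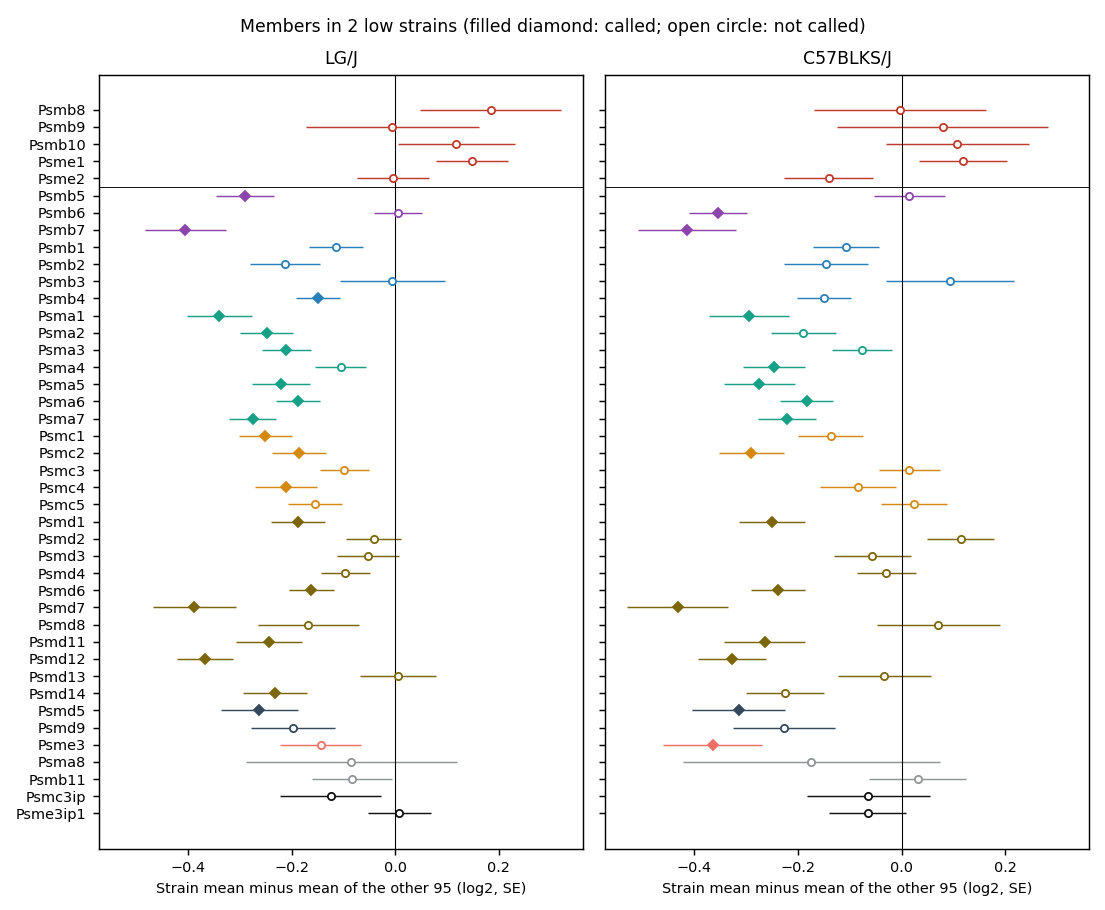
Difference of LG/J (left) and C57BLKS/J (right) from the mean of the other 95 strains for each of the 42 members, in log2 units with the SE; filled diamonds were called and open circles were not. The 19 and 15 called members all lie left of 0, and the 5 immune subunits (top) are open.

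Over all 96 strains, 73 of 3552 pairs of an other member and a strain were called higher (2.06%) and 3.49% lower, beside 2.35% and 2.34% over all genes. After LG/J and C57BLKS/J, BXD48/RwwJ was called lower in 7 members (1.03% of genes in that strain) and BXA11/PgnJ in 7 (3.07% of genes). AXB6/PgnJ was called higher in 6, where 5.63% of genes were called higher.

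Against C57BL/6J, 0 to 2 members were called in each direction in the progenitors of the recombinant inbred panels. Such counts are too small to tell from the shares over all genes, given beside them. The 4 contrasts share the same 2 C57BL/6J mice. In A/J 2 of 42 members were called higher (4.76%; all genes 5.91%) and 0 lower (1 at an unadjusted p under 0.05; all genes 4.61%). In DBA/2J 0 were higher (3 unadjusted; all genes 1.12%) and 1 lower, Psmb6 (all genes 0.983%). In BALB/cJ 2 were higher (all genes 5.52%) and 1 lower (all genes 4.2%), and in C3H/HeJ 1 higher (all genes 5.38%) and 1 lower (all genes 3.15%). Beside Psmd8, Psmb6 and Psmd9, given above, Psma7 had 10.18, 10.33 and 10.21 in A/J and 10.19, 10.17 and 10.26 in BALB/cJ, against 9.89 and 9.99 in C57BL/6J. It was 0.30 ± 0.07 higher in A/J (adjusted p = 0.0022, limma) and 0.27 ± 0.07 higher in BALB/cJ (adjusted p = 0.0082). Without the first C57BL/6J mouse the adjusted p was 0.15 and 0.26. Psmd11, the Rpn6 subunit, had 9.11, 9.20 and 9.24 in BALB/cJ, against 9.46 and 9.84 in C57BL/6J. It was 0.47 ± 0.10 lower (adjusted p = 0.00063, limma), and 0.28 lower without the second C57BL/6J mouse. With the mean of all its probe sets Psmd11 was not called. Its other bright probe set (mean 9.28) had its lowest strain mean in C57BLKS/J (8.74) instead.

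No immune subunit was called in a progenitor, and 0 of them had an unadjusted p under 0.05 in any of the 4 contrasts. Psmb8 had 9.36, 9.60 and 8.99 in A/J, 8.94, 9.10 and 9.28 in DBA/2J, 9.42, 9.05 and 9.45 in BALB/cJ and 8.91 and 9.27 in C3H/HeJ, against 9 and 9.06 in C57BL/6J. The values overlapped with those of C57BL/6J in each strain. The differences of the 5 genes from C57BL/6J ran from 0.09 to 0.31 in A/J, from 0.02 to 0.24 in DBA/2J, from 0.06 to 0.27 in BALB/cJ and from -0.22 to 0.09 in C3H/HeJ (smallest adjusted p = 0.36).

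Outside the immune subunits, members were tied together loosely and unevenly, as a description over 96 strain means. The median r was 0.62 over the 10 pairs among the immune subunits, 0.62 over the 21 pairs among the alpha ring genes, 0.10 over the 10 pairs among the ATPases and 0.08 over the 55 pairs among the lid and base subunits. Over all 528 pairs of the other subunits and chaperones it was 0.22, with 387 above 0. The closest pairs were Psma6 with Psmd12 (r = 0.83), Psmb7 with Psmd12 (0.81), Psmb7 with Psma6 (0.78), Psmb4 with Psma2 (0.78) and Psma2 with Psma5 (0.76). The most opposed were Psmd3 with Psmd8 (-0.59) and Psma4 with Psmd2 (-0.48). Among deviations of mice from their strain mean the median was 0.77 for the immune subunits, 0.28 for the alpha ring and 0.15 for the 528 pairs.

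**Figure D5:**
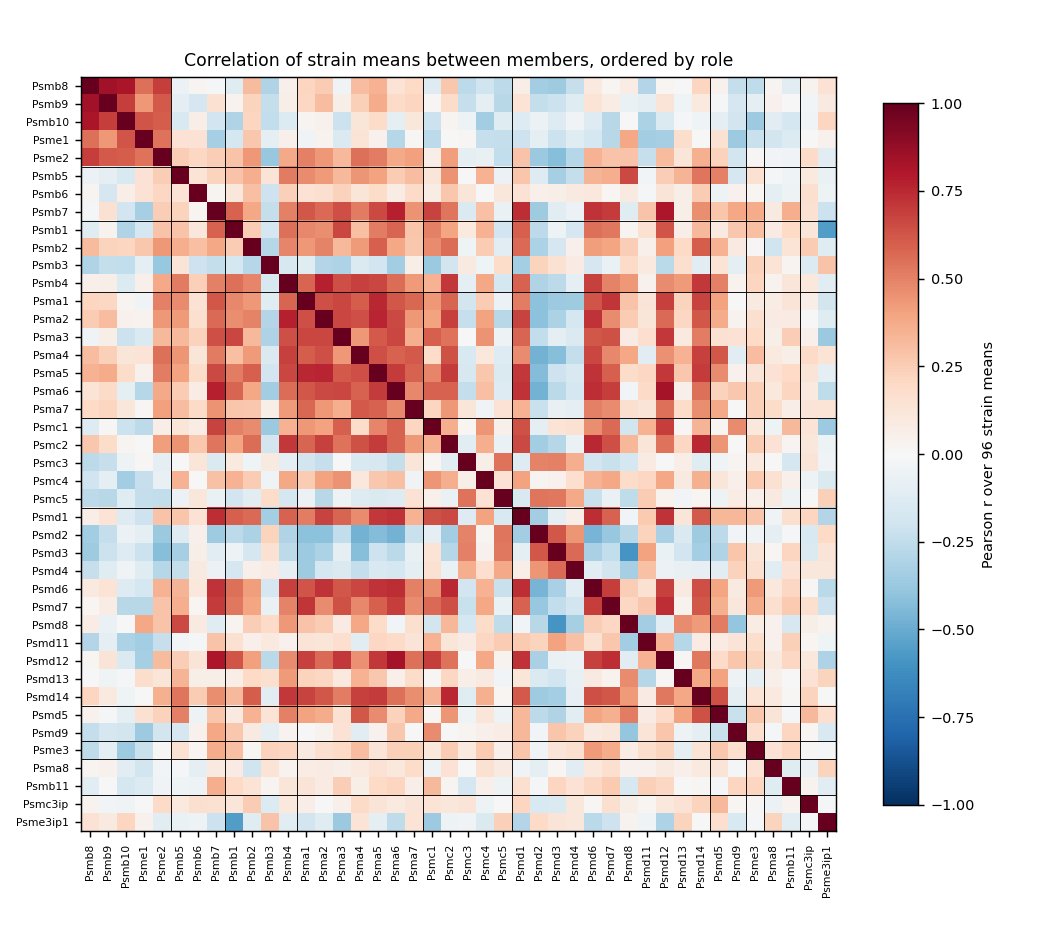
Pearson r over 96 strain means between the 42 members, with lines between classes; the immune subunits come first, then the catalytic and structural beta subunits, the alpha ring, the ATPases, the other 19S subunits, chaperones and the remaining members. The 5 by 5 block of the immune subunits (median r 0.62) and the alpha ring (0.62) stand out as red blocks, and the strip between immune and other members holds both signs (r from -0.42 to 0.55, median -0.01).

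The genes most like the mean z-score of the other members included proteasome partners and mitochondrial genes. Txnl1, a thioredoxin-like protein bound to the 19S cap, came first (r = 0.84; 0.90 over classical, 0.86 over BXD and 0.70 over AXB/BXA strains). Cycs, cytochrome c (0.79), Fbxo8 (0.74), Slc25a5, the mitochondrial ADP/ATP carrier (0.74), Apoo (0.73), Usp14, the deubiquitinase of the cap (0.72), and the mitochondrial ribosome genes Mrpl32 (0.72) and Mrps22 (0.72) followed, and Inf2 (-0.71) and Plxnb2 (-0.71) ran opposite. In all genes 95% had an absolute r under 0.45. Of the list of assembly and associated factors 13 of 16 measured genes had r above 0 with this score (median 0.31) and 13 of 16 were called across strains, beside 87.1% of genes above the median signal, led by Zfand2a (share 0.69), Ecpas (0.55), Ubqln1 (0.49) and Txnl1 (0.48). The list's mean log2 level was 7.68 in LG/J, the lowest of the strains, and 7.75 in C57BLKS/J, against a median of 7.80.

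Nfe2l1, the transcription factor NRF1 that restores proteasome genes after inhibition, Nfe2l2 (NRF2) and their targets had low median correlations with both classes but differed among themselves. Of this list 11 of 11 measured genes were called across strains, beside 87.1% of genes above the median signal, led by Srxn1 (share 0.67), Nqo1 (0.63), Nfe2l2 (0.61) and Txnrd1 (0.59). Their median r was 0.10 with the other members and 0.13 with the immune subunits. Nfe2l1 itself had r = -0.45 with the score of the other members, and Ngly1, the glycanase that processes NRF1, had r = 0.49. Of the ubiquitin and ubiquitin-like enzymes 10 of 11 were called, beside the same background, led by Ubd (0.70), Usp18 (0.61), Ube2d3 (0.56) and Ube2l3 (0.53), with a median r of 0.26 with the immune score and 0.09 with the other.

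Second probe sets did not always follow the first. The other bright probe set of Psmb9 (mean 7.87) had a share of 0.35, its lowest strain was NOD/ShiLtJ (7.09) and its highest AXB19/PgnJ (8.63), and its strain means had r = 0.57 with those of the first. It had r = 0.52 with Psmb8, 0.58 with Psmb10, 0.45 with Psme1 and 0.32 with Psme2. The other bright probe sets had r = 0.79 with the first for Psma7, 0.60 for Psmd11, 0.21 for Psmc4, 0.21 for Psmd4 and 0.14 for Psmd6. Psmb6, Psmd8 and Psmc3ip had 1 probe set each, so their strain differences had no second reading.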

How the data were processed

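Liver RNA of 220 mice from 96 maternal strains was hybridised to 1 expression array each. Each probe set has a log2 value that the authors deposited, made with GCOS and RMA per the submitters' processing notes, whose versions the sources used here do not give. The values were used as deposited; arrays keep no read depth, and the number of mice per strain limits the precision. Groups were the maternal strains of the labels. Strain means were fitted with limma 3.58.1 in R 4.3.3 over all mice and all probe sets: a moderated F-test across the 87 strains with at least 2 mice, each strain against the mean of the other 95, 4 progenitor strains against C57BL/6J, and F-tests within panels. Calls had a Benjamini-Hochberg adjusted p under 0.05. The limma p-values weigh differences of strain means against the spread between mice of a strain, which may in part be technical. Correlations of strain means used 100000 permutations in 23 of 33 planned pairs, the rest of which are not reported here (Python 3.11.15, numpy 2.4.6, scipy 1.17.1, pandas 2.3.3). Both kinds of fit were tested on simulated data, the limma fits with changes of 1 and 2 log2 units only. Smaller changes were not simulated. The members and lists were chosen with earlier results of these data known. Every member was to be named, with full values for the immune and constitutive catalytic subunits, Psme3, the 6 other members with the highest shares, the 3 with the widest ranges and those called in a progenitor, together with the 3 highest and lowest strains of each immune subunit, the 15 and 10 genes most like the immune and other scores, and up to 4 genes per list. Alternatives were array centring, a filter on dim probe sets, the mean of all probe sets of a gene, trended robust moderation, the progenitors alone, other correlation measures and left-out mice.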

Additional observations from a re-analysis of the deposited data

Results flagged for a closer look

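In BXD20/TyJ, the only strain with 4 mice, Psmb9 had 8.46, 8.57, 8.57 and 9.20. The gap from the highest mouse to the next, divided by the strain's range, was 0.846, above Dixon's 95% critical value of 0.829 for 4 samples. It was the only one of 42 members tested there to pass, and chance passes about 1 in 20.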

How the results depend on the processing

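No paired analysis was possible because the replicate numbers follow accession order and only name a mouse. Immune subunit and strain pairs called numbered 17 among probe sets above the median mean, against 10. With the progenitors fitted alone, 0 members were lower in DBA/2J, 1 higher in BALB/cJ and 0 lower in BALB/cJ; with the mean of all probe sets of a gene, 0 were lower in BALB/cJ and 0 in C3H/HeJ. The correlation of Psmb8 with Psmb5 turned to 0.065 among deviations of mice. Psmb3 in RIIIS/J turned to -0.14 without its second mouse and -0.11 without replicate 2 of every strain, and was 1.17 without its first. The causes were not tested.

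Leaving out mice lowers counts in part by construction, since strains left with 1 mouse leave the F-test; in contrasts a lone mouse is assumed to vary like other strains. Members called across strains numbered 16 to 33 (40 with all mice), immune subunits 2 to 3, pairs of a member and a strain 26 to 45 higher and 25 to 87 lower, and immune pairs 3 to 11. Members lower in LG/J numbered 2 to 18 and in C57BLKS/J 1 to 15. Against C57BL/6J, 1 to 2 were higher in A/J, 0 to 1 lower in DBA/2J, 1 to 2 higher and 0 to 1 lower in BALB/cJ, and 0 to 1 higher and 0 to 1 lower in C3H/HeJ. Across classical strains 1 to 15 were called, across BXD 5 to 12 and across AXB/BXA 2 to 5. BXH could not be fitted without replicate 1 or 2. All 10 immune pairs stayed called in each left-out set. Leaving out single mice of called strains was chosen after seeing the data.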
